A study of Mus musculus with 12 samples.

Results

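The genes described here are 10 tubulin genes of the mouse, taken by symbol from tables that list 54735 gene symbols: the alpha-tubulins Tuba1a, Tuba1b and Tuba1c, the beta-tubulins Tubb2a, Tubb2b, Tubb3, Tubb4b, Tubb5 and Tubb6, and the gamma-tubulin Tubg1. All 10 were present in each of the 12 tables, and all 10 passed the filter on low values used for testing. They were read in C57/Bl6 embryos at E13.5, in the pallium (dorsal telencephalon), from which the cerebral cortex develops. Total RNA from whole dissected tissue was sequenced, and each value is a TPM, a transcript abundance scaled for transcript length to a fixed library sum. Control embryos were Rnu11wt/flx::Trp53wt/wt::Emx1-Cre+, embryos with both Rnu11 alleles floxed (cKO) were Rnu11flx/flx::Trp53wt/wt::Emx1-Cre+, and double mutants (dKO) were Rnu11flx/flx::Trp53flx/flx::Emx1-Cre+, with 4 embryos of each. The RNA made from Rnu11, U11, belongs to the minor spliceosome, the machinery for a small class of introns, and Trp53 encodes p53. All 12 embryos carried Emx1-Cre, which recombines floxed alleles in pallial progenitors and their descendants, so in that lineage the controls were heterozygous for the Rnu11 deletion, and cells outside that lineage (vessels, microglia, meninges, immigrating interneurons) kept their floxed alleles in every group. Nothing in the labels tells which embryos shared a litter, so the tests measure the spread between these embryos.

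Microtubules are polymers of alpha-beta tubulin dimers, and gamma-tubulin sits in ring complexes that start new microtubules at centrosomes and along existing microtubules. The alpha and beta proteins each come from several genes, called isotypes, whose proteins differ mainly in the tail at the carboxy end, where motors and microtubule-associated proteins bind and where most chemical modifications are made. In the developing cortex Tubb3 is a standard marker of newborn neurons, Tuba1a and Tubb2b are the abundant isotypes of migrating neurons and are mutated in human malformations of cortical folding and layering, and Tubb5, Tuba1b, Tuba1c, Tubb4b and Tubb6 are also made by dividing cells in many tissues. Cells hold the amount of tubulin mRNA in check by degrading it when free dimers accumulate. The contrast drawn here is between the neuronal set (Tubb3, Tuba1a and Tubb2b) and the proliferative set (Tubb5, Tuba1b, Tuba1c, Tubb4b and Tubb6), with Tubb2a, a close relative of Tubb2b, and Tubg1 in neither.

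How far each isotype can be told from its relatives bears on every value below, so the ends of the coding sequences of a similar pair, Tubb2a and Tubb2b, and a divergent pair, Tubb3 and Tubb5, are shown. Each line is the last 60 bases of the coding sequence before the stop codon, which encode the divergent tail, 5′ to 3′ on the coding strand, from GENCODE M21 on GRCm38 (the mm10 build). Capitals mark bases that did not match the partner in a global alignment of the 2 coding sequences, including bases set against a gap.
Tubb2a: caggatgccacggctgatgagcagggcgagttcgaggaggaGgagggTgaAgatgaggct
Tubb2b: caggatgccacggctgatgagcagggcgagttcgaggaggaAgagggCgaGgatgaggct
Tubb3: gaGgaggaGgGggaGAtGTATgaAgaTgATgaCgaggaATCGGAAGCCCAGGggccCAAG
Tubb5: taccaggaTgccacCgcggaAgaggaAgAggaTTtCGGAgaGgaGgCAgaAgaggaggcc
All 4 stretches lie in exon 4 of 4: Tubb2a at chr13:34074471-34074530 and Tubb2b at chr13:34127474-34127533, both on the minus strand, Tubb3 at chr8:123421620-123421679 on the plus strand, and Tubb5 at chr17:35834985-35835044 on the minus strand. The Tubb2a and Tubb2b tails differed at 3 of 60 bases. In contrast, 32 of the 60 bases of the Tubb3 tail were unmatched in Tubb5. Over the whole coding sequence, Tuba1a was 98.3% identical to Tuba1b and 97.1% to Tuba1c, Tuba1b was 97.9% identical to Tuba1c, and Tubb2a was 96.5% identical to Tubb2b, whereas Tubb3 and Tubb5 were 81.3% identical.

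The similar genes also lie side by side. Tuba1b (chromosome 15, 98931425 to 98934565), Tuba1a (98949837 to 98953703) and Tuba1c (99029891 to 99038110) form 1 cluster, and Tubb2a (chromosome 13, 34074274 to 34078007) and Tubb2b (34126748 to 34130466) another. The rest are scattered: Tubb3 on chromosome 8 (123411424 to 123422015), Tubb4b on chromosome 2 (25222160 to 25224702), Tubb5 on chromosome 17 (35833921 to 35838306), Tubg1 on chromosome 11 (101119938 to 101126419) and Tubb6 on chromosome 18. Every stretch of 50 bases of the longest coding transcript of each gene was looked for, in either orientation, in all annotated transcripts of other genes. Such shared stretches made up 75.5% of Tuba1a, 83.1% of Tuba1b, 61.0% of Tuba1c, 49.6% of Tubb2a, 39.3% of Tubb2b and 55.5% of Tubb4b. They made up 14.1% of Tubg1, nearly all shared with Tubg2, and 0.115% of Tubb5, while Tubb3 and Tubb6 shared none. Tubb4b shared its stretches mostly with the pseudogene Tubb4b-ps1 (675 stretches), also with Tubb4b-ps2 (282) and Gm16165 (107), and not with another of the 10 genes. How the authors assigned reads that match several genes is not given in the sources used here, so the split between Tuba1a, Tuba1b and Tuba1c, and between Tubb2a and Tubb2b, is uncertain. Stretches shared with another of the 10 genes made up 52.0% of Tuba1a and 64.6% of Tuba1b, so some were shared only with genes outside the 10. The levels of Tuba1a, Tuba1b and Tubb4b, and the summed alpha and beta-tubulin TPM below, are therefore uncertain too. Tubb3 and Tubb6 are not touched by this, and Tubb5 hardly.

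**Figure D1:**
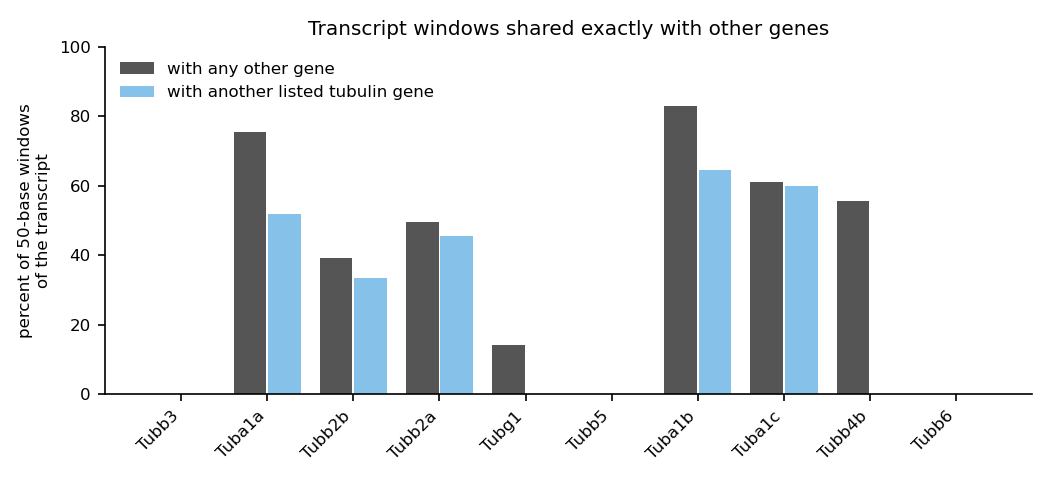
Percent of the 50-base stretches of each gene's transcript (vertical axis) that occur exactly, in either orientation, in a transcript of any other gene (dark bars) or of another of the 10 tubulin genes (light bars). Tuba1b is highest at 83.1%, and Tubb3 and Tubb6 are at 0.

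In the targeted gene, Rnu11 read 674, 521, 724 and 643 TPM in the controls, 159, 145, 115 and 158 in the cKO embryos and 145, 142, 169 and 199 in the dKO embryos, so every mutant embryo lay below every control. Trp53 read 6.37, 2.90, 2.63 and 3.37 TPM in the controls, 4.18, 4.04, 3.92 and 4.83 in the cKO embryos and 0.920, 1.49, 1.13 and 1.36 in the dKO embryos, and each dKO embryo lay below all 8 others. The pallial regulators Emx1, Emx2 and Lhx2 were present in all 12 libraries, between 3.19 TPM (Emx2) and 35.9 TPM (Lhx2). TPM keeps no sequencing depth, so no counting error can be given. RefSeq protein-coding genes held 14.2% to 19.5% of the TPM of these total RNA libraries, and on the deposited scale the median tested gene stood 0.25 higher in cKO than in control and 0.26 lower in dKO than in cKO (log2). Levels are therefore printed as deposited, while changes, written as log2 changes on the log2(TPM + 1) scale, are relative to the median gene of 11764 tested genes, with the deposited scale beside them. A gene is called where the limma p, adjusted over all tested genes by Benjamini-Hochberg, is under 0.05. In bulk tissue, fewer cells of a type and less RNA per cell cannot be told apart.

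Tubulin mRNA was dominated by a handful of isotypes. In control, Tuba1a stood at 920.3 ± 45.3 TPM (mean ± SD, n = 4 here and below), followed by Tubb5 at 465 ± 60.4, Tuba1b at 357 ± 47.1 and Tubb2b at 334 ± 31.5. A gap separated these 4 from Tubb4b at 83.9 ± 10.4, Tubb3 at 60.7 ± 4.58 and Tubb2a at 40.6 ± 2.04. Tuba1c at 15.6 ± 1.69, Tubg1 at 4.35 ± 1.03 and Tubb6 at 1.97 ± 0.567 were the lowest. In control the ranges of neighbours in this order overlapped for Tubb5 with Tuba1b and for Tuba1b with Tubb2b, and for no other neighbours. The order was the same in dKO, where Tuba1b with Tubb2b, Tubb4b with Tubb3, Tubb3 with Tubb2a and Tubg1 with Tubb6 overlapped. In cKO it differed from control in that Tubb2b (416 ± 54.3) stood above Tuba1b (367 ± 74.1), a difference smaller than the spread: Tubb2b was the higher in 3 of 4 cKO embryos. So the neuron marker Tubb3 was a minor isotype in every group, with a mean below that of Tubb4b, while the neuronal isotypes Tuba1a and Tubb2b were among the most abundant.

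**Figure D2:**
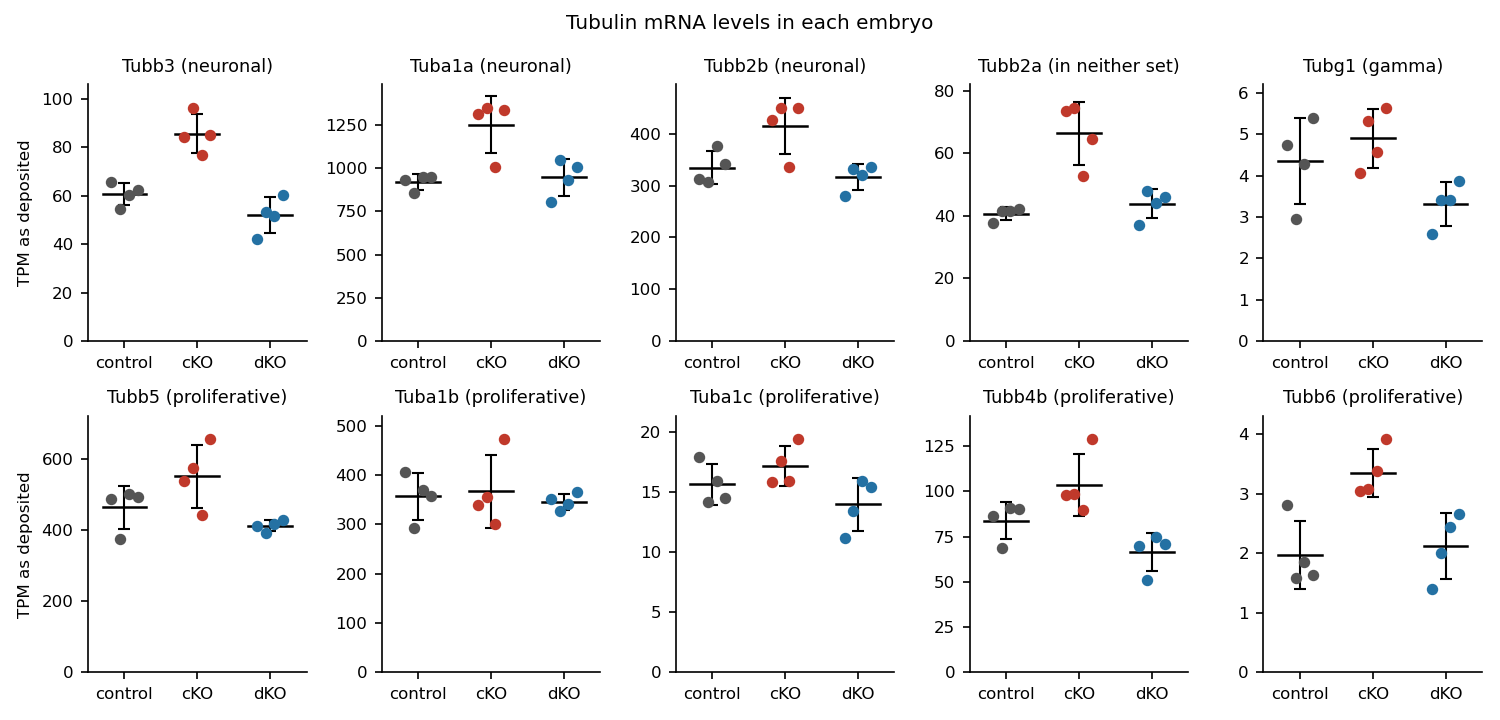
TPM as deposited (vertical axes, each from 0) of the 10 tubulin genes in the 4 control, 4 cKO and 4 dKO embryos, 1 point per embryo, with the mean and SD as lines. For Tubb3, Tuba1a, Tubb2a and Tubb6 all cKO points sit above all control points on this scale, and dKO points overlap control for every gene.

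Tubb3, the tubulin of newborn neurons, fell in dKO against cKO and was not called against control in either mutant. It read 65.6, 54.7, 60.2 and 62.4 TPM in the controls, 84.4, 96.4, 76.8 and 85.1 in the cKO embryos and 42.2, 53.5, 51.9 and 60.3 in the dKO embryos. Every cKO embryo lay above every embryo of the other groups, while control and dKO overlapped. The dKO mean was 60.7% of the cKO mean, and relative to the median gene Tubb3 fell by 0.45 (SE 0.104, adjusted p = 0.0282 in limma), with all 4 dKO embryos below all 4 cKO embryos on that scale too. Against control, the cKO value was 0.24 (SE 0.104, adjusted p = 0.206) relative to the median gene and 0.49 (adjusted p = 0.00875) on the deposited scale, so the call depends on the scale. In dKO against control Tubb3 differed by -0.21 (SE 0.104, adjusted p = 0.243), which is not called. The call of dKO against cKO was lost without cKO embryo 1 (adjusted p = 0.0786), cKO embryo 2 (0.0981), cKO embryo 3 (0.0556) or dKO embryo 3 (0.0577), with changes from -0.53 to -0.36 over all 8 such fits, and it was lost when only those 2 groups were fitted (0.0750).

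The alpha-tubulin Tuba1a, the main tubulin of migrating neurons, read 929, 854, 948 and 950.3 TPM in the controls, 1314, 1349, 1005 and 1334 in the cKO embryos and 806, 1049, 929 and 1007 in the dKO embryos. On the deposited scale all cKO embryos lay above all controls, with cKO embryo 3 closest to them, and dKO overlapped both. Relative to the median gene, Tuba1a was not called in any comparison: 0.18 (SE 0.108, adjusted p = 0.362) in cKO against control, 0.056 (0.799) in dKO against control and -0.13 (0.509) in dKO against cKO. As deposited, the cKO mean was 136% of control (0.43, adjusted p = 0.0190), and with quantile normalization Tuba1a was also called higher in cKO against control (0.57, adjusted p = 0.00966).

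Tubb2b, the other abundant neuronal isotype, read 313, 307, 376 and 341 TPM in the controls, 426, 450.3, 336 and 450.1 in the cKO embryos and 279.9, 331, 319.7 and 336 in the dKO embryos. In cKO, embryo 3 was within the control range and the other 3 were above every control, and control and dKO overlapped. Its changes were 0.058 (adjusted p = 0.805), -0.058 (0.783) and -0.12 (0.533) for cKO against control, dKO against control and dKO against cKO. So of the neuronal set, the most abundant members were not called in any comparison on this scale, and the 1 call was that of Tubb3.

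Tubb2a, the neighbour of Tubb2b, was the tubulin gene that rose in cKO. It read 37.6, 41.4, 41.4 and 42.1 TPM in the controls, 73.5, 74.5, 52.7 and 64.5 in the cKO embryos and 37.2, 47.8, 44.02 and 46.1 in the dKO embryos. As deposited, all cKO embryos lay above all embryos of the other groups, and dKO overlapped control. On the scale relative to the median gene, cKO still lay above every control but overlapped dKO. The cKO mean was 163% of control, and Tubb2a rose by 0.43 relative to the median gene (SE 0.117, adjusted p = 0.0481), just inside the threshold. The call held on the deposited scale (0.68, adjusted p = 0.00209). It was lost with a pseudocount of 0.1 (adjusted p = 0.0725) and with only those 2 groups in the fit (0.0600). It was also lost without any 1 of the 4 controls (adjusted p = 0.114, 0.0666, 0.103 and 0.0936 for controls 1 to 4) and without cKO embryo 1 or cKO embryo 2 (0.139 for each), and it held without cKO embryo 3 or 4. In dKO against cKO Tubb2a differed by -0.31 (adjusted p = 0.137), which is not called. Tubb2a shares 712 of its 50-base stretches with Tubb2b, and the pseudogene Tubb2a-ps2, which shares stretches with both, was listed at 8.55 to 14.9 TPM in cKO and 8.94 to 12.4 in control, with overlapping groups.

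Of the proliferative set, Tubb5 is the most abundant beta-tubulin of the tissue and is also mutated in human microcephaly. It read 487, 375, 503 and 494 TPM in the controls, 537, 574, 442 and 655 in the cKO embryos and 412, 392.4, 418 and 429 in the dKO embryos. As deposited, the dKO embryos lay close together inside the control range and below all 4 cKO embryos, while cKO overlapped control. On the scale relative to the median gene, all groups of Tubb5 overlapped. Relative to the median gene, its changes were -0.00595 (adjusted p = 0.981), -0.14 (0.443) and -0.14 (0.457) in cKO against control, dKO against control and dKO against cKO, none of them called. The SE of 0.103 gives the precision of the first value, which changed sign between scalings.

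Tuba1b, the general alpha-tubulin of dividing cells, read 407, 293, 370.0 and 357 TPM in the controls, 339, 356, 300.1 and 472 in the cKO embryos and 350.4, 327, 342 and 365 in the dKO embryos, with all 3 groups overlapping. It was the member with the lowest value in cKO against control relative to the median gene, -0.22 (SE 0.107, adjusted p = 0.260), but 0.029 as deposited, so no direction can be given. The minor alpha-tubulin Tuba1c read 17.9, 14.2, 15.9 and 14.5 TPM in the controls, 15.8, 17.6, 15.9 and 19.4 in the cKO embryos and 11.1, 13.4, 15.9 and 15.4 in the dKO embryos. Its groups overlapped throughout, and it was called in no comparison on either scale.

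Tubb4b, which is made in dividing cells and in ciliated cells, read 86.1, 68.5, 90.8 and 90.1 TPM in the controls, 98.1, 98.5, 89.8 and 129 in the cKO embryos and 69.6, 50.9, 74.9 and 70.99 in the dKO embryos. All dKO embryos lay below all cKO embryos, with dKO embryo 2 the lowest of the 12, and each mutant group overlapped control. Relative to the median gene Tubb4b differed by -0.37 in dKO against cKO (SE 0.130, adjusted p = 0.120) and by -0.31 in dKO against control (0.160), neither called. It was called in dKO against cKO on the deposited scale (-0.63, adjusted p = 0.00713).

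Tubb6, a minor beta-tubulin, read 2.80, 1.59, 1.86 and 1.63 TPM in the controls, 3.05, 3.07, 3.38 and 3.91 in the cKO embryos and 1.39, 2.01, 2.44 and 2.66 in the dKO embryos. The cKO embryos lay above all others on the deposited scale, where the cKO mean was 170.0% of control. The change relative to the median gene was 0.31 (SE 0.136, adjusted p = 0.203) and was not called, and at this level the log2(TPM + 1) scale understates a change. Tubg1, the gamma-tubulin that nucleates microtubules, read 4.75, 2.96, 4.28 and 5.40 TPM in the controls, 4.06, 5.32, 4.57 and 5.64 in the cKO embryos and 2.60, 3.41, 3.41 and 3.87 in the dKO embryos. As deposited, every dKO embryo lay below every cKO embryo for Tubg1 and dKO overlapped control, while relative to the median gene all groups overlapped. The changes of Tubg1 relative to the median gene, -0.094, -0.27 and -0.18, were not called (limma adjusted p = 0.721, 0.194 and 0.408 for cKO against control, dKO against control and dKO against cKO).

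In counts, 1 of the 10 genes was called in cKO against control, higher (Tubb2a), beside 6.68% of all tested genes called in either direction and 3.72% called higher. Of the 10, 0 were called by limma in dKO against control, beside 8.43% of all tested genes (3.74% higher and 4.69% lower), and 2 of the 10 (Tubb4b and Tubg1, both lower) had an unadjusted p under 0.05 there. In dKO against cKO 1 was called, lower (Tubb3), beside 5.93% of all tested genes and 3.83% called lower. Counts of 1 in 10 and 0 in 10 are near these backgrounds and are no result about the tubulin genes as a group. Relative to the median gene, groups did not overlap for Tubb2a and Tubb3 in cKO against control (2 of 10 higher, beside 8.74% of all tested genes) and for Tubb3 and Tubb4b in dKO against cKO (2 of 10 lower, beside 7.38%). All 10 overlapped in dKO against control, beside 6.86% of all tested genes that lay higher and 7.28% that lay lower without overlap. The members' median change was 0.054 in cKO against control (6 above 0 and 4 below), -0.098 in dKO against control (3 above and 7 below) and -0.16 in dKO against cKO (1 above and 9 below), where the median over all tested genes was -0.0034, 0.0051 and 0.011. With quantile normalization the members' median was 0.26 in cKO against control (8 above 0 and 2 below), -0.058 in dKO against control (4 above and 6 below) and -0.32 in dKO against cKO (0 above and 10 below), beside -0.0038, 0.0014 and 0.0085 over all tested genes. On that scaling Tuba1a and Tubb2a were called higher in cKO against control, and Tubb3 and Tubb4b lower in dKO against cKO.

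In the comparisons that involve cKO, the deposited scale gave larger counts for the tubulins and for all genes alike. On it, 4 of the 10 were called higher in cKO against control (Tuba1a, Tubb2a, Tubb3 and Tubb6), beside 34.3% of all tested genes called higher, and 35.4% called in either direction. In dKO against cKO 8 of the 10 were called lower, all but Tuba1b and Tuba1c, beside 38.8% of all tested genes called lower and 39.4% called in either direction. In dKO against control 0 were called, beside 5.19%, with 1 at an unadjusted p under 0.05. All 10 members stood above 0 in cKO against control on this scale and all 10 below 0 in dKO against cKO, with medians of 0.30 and -0.43 beside 0.25 and -0.26 for all tested genes. Groups did not overlap on this scale for 4 of 10 in cKO against control, all higher, beside 32.7% of all tested genes, and for 6 of 10 in dKO against cKO, all lower, beside 32.8%. The comparison of dKO with cKO and that of cKO with control share the cKO embryos, so their opposite signs are not 2 separate observations. Tubb2a and Tubb3 were the members whose call in 1 of these comparisons held on every one of the 4 scalings tried.

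**Figure D3:**
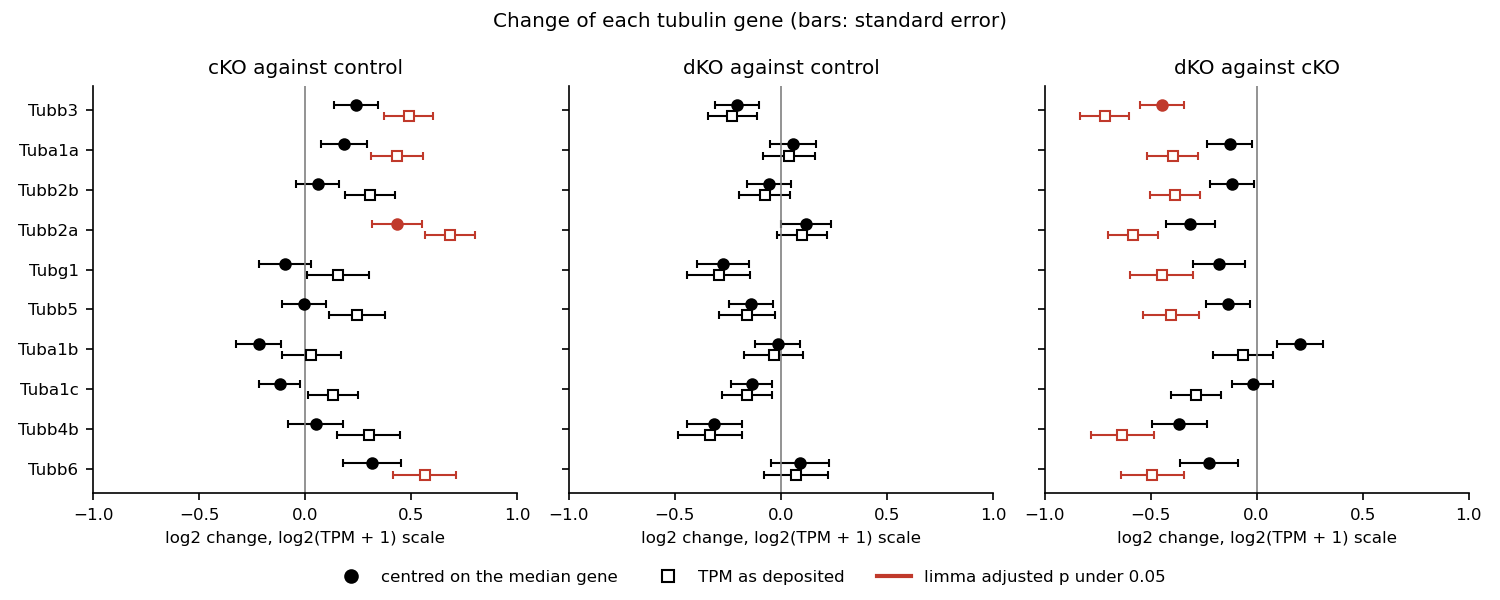
Log2 change of each tubulin gene on the log2(TPM + 1) scale (horizontal axes) in the 3 comparisons, relative to the median gene (filled circles) and as deposited (open squares), with the standard error as bars and limma adjusted p under 0.05 in red. Filled circles in red are Tubb2a in cKO against control (0.43) and Tubb3 in dKO against cKO (-0.45); none is red in dKO against control.

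Ratios within a library cancel its scaling, apart from the 1 TPM added before the logarithm, so they address directly whether neuronal and proliferative isotypes shifted against each other. They are given as descriptions, with no test. The mean log2(TPM + 1) of the neuronal set minus that of the proliferative set was 2.03, 2.30, 2.20 and 2.24 in the controls, 2.47, 2.503, 2.27 and 2.16 in the cKO embryos and 2.11, 2.44, 2.12 and 2.24 in the dKO embryos. The group means were 2.19 ± 0.117, 2.35 ± 0.163 and 2.23 ± 0.151, and all 3 groups overlapped: cKO embryos 1 and 2 lay above every control, while cKO embryos 3 and 4 lay inside the control range. The difference of 0.16 between cKO and control is about the size of the SD within cKO. Each gene counts equally in its set, so the scarce Tubb6 weighs as much as Tubb5. As deposited, Tubb6 differed by 0.56 in cKO against control. The other proliferative isotypes differed by 0.029 (Tuba1b) to 0.30 (Tubb4b), so Tubb6 draws this difference downward.

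Single pairs differed in the shift of cKO against control: 0.24 for Tubb3 to Tubb5, 0.40 for Tuba1a to Tuba1b, 0.064 for Tubb2b to Tubb5. The log2 ratio of Tubb3 to Tubb5, the pair least touched by shared sequence, was -2.87, -2.75, -3.04 and -2.97 in the controls, -2.66, -2.56, -2.51 and -2.93 in the cKO embryos and -3.26, -2.85, -2.99 and -2.81 in the dKO embryos. Here cKO embryos 1 to 3 lay above every control and every dKO embryo, and cKO embryo 4 lay inside both ranges. That of Tuba1a to Tuba1b averaged 1.37 ± 0.144 in the controls, 1.78 ± 0.209 in the cKO embryos and 1.44 ± 0.196 in the dKO embryos, again with cKO embryo 4 inside the control range. For Tubb2b to Tubb5, a neuronal over a proliferative beta-tubulin, the means were -0.47 ± 0.150, -0.40 ± 0.0951 and -0.38 ± 0.130, with no separation of any group.

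Tubb2a over Tubb2b did separate cKO from control. The log2 ratio of this pair was -3.03, -2.86, -3.15 and -2.99 in the controls, -2.52, -2.58, -2.65 and -2.78 in the cKO embryos and -2.88, -2.77, -2.83 and -2.84 in the dKO embryos. Every cKO embryo lay above every control, by 0.37 on average, and dKO lay between the 2 groups and overlapped both. Set over Tubb5 instead, Tubb2a did not separate them: the log2 ratio was -3.66, -3.15, -3.57 and -3.52 in the controls, -2.85, -2.93, -3.04 and -3.32 in the cKO embryos and -3.43, -3.01, -3.22 and -3.19 in the dKO embryos. There cKO embryos 1 to 3 lay above every control and cKO embryo 4 inside the control range. The high sequence identity of Tubb2a and Tubb2b leaves the split of their reads uncertain, and its part in their ratio was not tested.

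**Figure D4:**
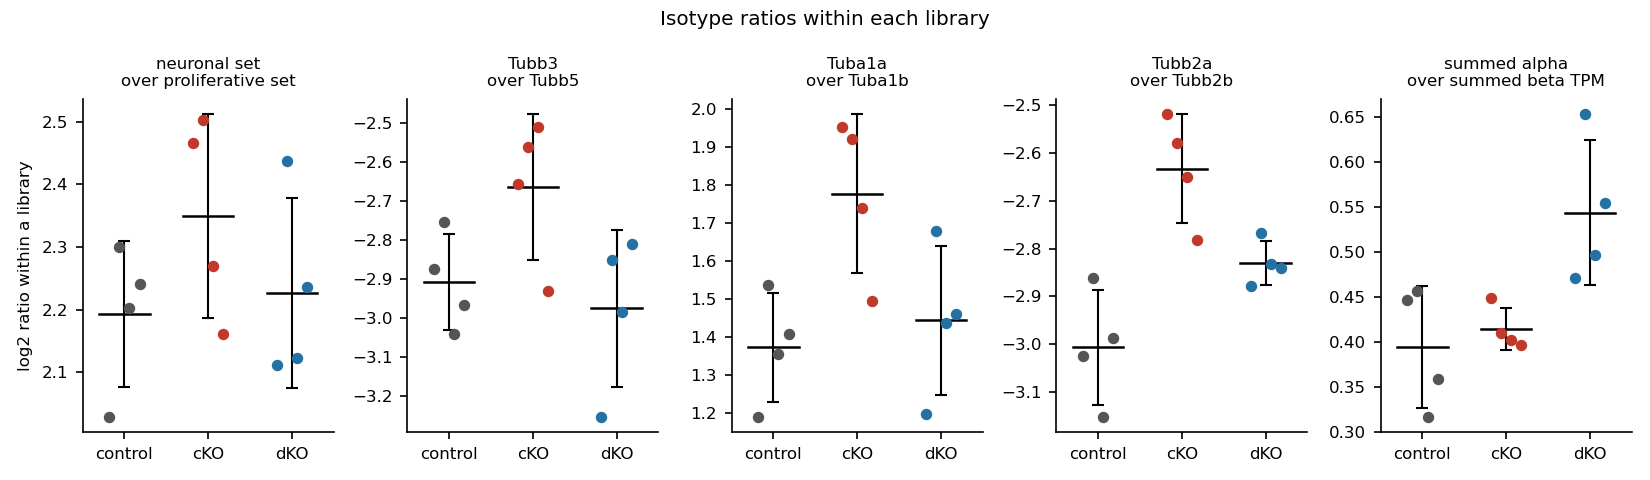
Log2 ratios within each library (vertical axes, not starting at 0) for the neuronal over the proliferative set, Tubb3 over Tubb5, Tuba1a over Tuba1b, Tubb2a over Tubb2b, and summed alpha over summed beta-tubulin TPM, 1 point per embryo with mean and SD. Groups overlap in the first 3 panels, cKO lies above control for Tubb2a over Tubb2b, and dKO lies above both other groups for alpha over beta.

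As shares of all alpha-tubulin TPM, summed over 8 genes, Tuba1a made up 68.4%, 73.3%, 70.9% and 71.7% in the controls, 78.6%, 78.1%, 75.9% and 72.9% in the cKO embryos and 68.9%, 75.4%, 72.03% and 72.4% in the dKO embryos. The cKO mean was the highest (76.4% ± 2.60, against 71.1% ± 2.03 in control and 72.2% ± 2.65 in dKO), but cKO embryo 4 lay inside the control range. Tuba1b took nearly all the rest, 27.4% ± 1.97, 22.3% ± 2.54 and 26.6% ± 2.65, and Tuba1c 1.205%, 1.06% and 1.06%.

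Of all beta-tubulin TPM, also summed over 8 genes, Tubb5 made up 46.9% ± 2.05 in the controls, 44.8% ± 1.57 in the cKO embryos and 46.04% ± 1.93 in the dKO embryos, and Tubb2b 33.9% ± 2.09, 33.8% ± 1.13 and 35.3% ± 1.76. Tubb3, the neuron marker, made up 6.58%, 6.44%, 5.61% and 6.04% in the controls, 6.89%, 7.42%, 7.66% and 6.12% in the cKO embryos and 5.01%, 6.05%, 5.67% and 6.37% in the dKO embryos. Its share overlapped between all groups, with cKO embryos 1 to 3 above every other embryo and cKO embryo 4 inside the other ranges. Tubb4b made up 8.47% ± 0.290, 8.45% ± 0.790 and 7.42% ± 1.16, where dKO embryo 2 was low at 5.76%, and Tubb2a 4.14% ± 0.503, 5.41% ± 0.598 and 4.87% ± 0.407. Over the 9 alpha and beta members, no share separated any pair of groups completely.

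**Figure D5:**
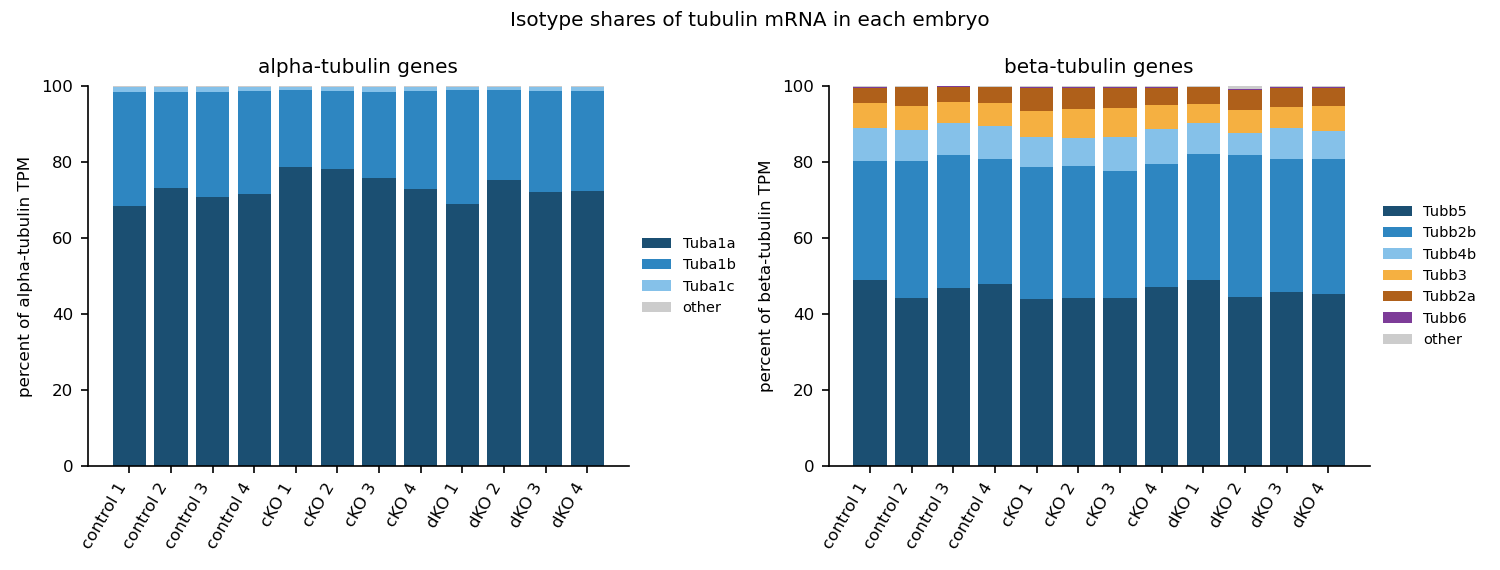
Percent of summed alpha-tubulin TPM (left) and beta-tubulin TPM (right) taken by each isotype in each of the 12 embryos, as stacked bars from 0 to 100. Tuba1a with Tuba1b, and Tubb5 with Tubb2b, take most of the bar in every embryo.

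Summed over each family, alpha-tubulin TPM was 1358, 1166, 1338 and 1326 in the controls, 1672, 1726, 1324 and 1831 in the cKO embryos and 1169.5, 1391, 1289.6 and 1391 in the dKO embryos. Beta-tubulin TPM was 996, 849, 1074 and 1034 in the controls, 1225, 1299, 1002 and 1390.2 in the cKO embryos and 844, 884, 914 and 947 in the dKO embryos. The alpha sums of dKO overlapped both other groups, whereas the beta sums of all dKO embryos lay below those of all cKO embryos. The log2 ratio of alpha to beta sums was 0.39 ± 0.0683 in the controls, 0.41 ± 0.0236 in the cKO embryos and 0.54 ± 0.0809 in the dKO embryos. All 4 dKO embryos lay above all 8 others, by 0.15 against control and 0.13 against cKO on average, with the lowest dKO embryo at 0.471 and the highest control at 0.457. This ratio was looked at with the other ratios and carries no test. The part of sequence shared with other genes in these sums was not tested.

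The remaining tubulin genes were scarce: of 10 further genes (Tuba3a, Tuba3b, Tuba4a, Tuba8, Tubal3, Tubb1, Tubb4a, Tubg2, Tubd1 and Tube1), 3 reached a mean of 1 TPM (Tuba4a, Tubb4a and Tube1). Of these 3, 1 was called, Tuba4a, a minor alpha-tubulin. Of all tested genes, 2.96%, 4.69% and 3.83% were called lower in cKO against control, dKO against control and dKO against cKO. Tuba4a read 4.59, 3.91, 3.89 and 3.97 TPM in the controls, 3.63, 4.21, 3.43 and 4.79 in the cKO embryos and 1.95, 2.29, 2.60 and 2.61 in the dKO embryos, so every dKO embryo lay below all 8 others while cKO overlapped control as deposited. Relative to the median gene dKO also lay below control and below cKO without overlap, beside 7.28% and 7.38% of all tested genes. Tuba4a fell in dKO against control by 0.58 (adjusted p = 0.000903), and that call held whichever embryo was left out (0.00112 to 0.00379). It was also called lower in dKO against cKO (-0.31, adjusted p = 0.0348, over the 8 fits that left out 1 embryo 0.0279 to 0.106), a call lost without any 1 cKO embryo and without dKO embryo 1 or 2. The call in cKO against control (-0.28, adjusted p = 0.0470) was absent on the deposited scale (-0.027, adjusted p = 0.838) and was lost whichever embryo was left out (0.0592 to 0.124).

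Of the genes that fold tubulin, Arl2, Vbp1 and Pfdn5 fell in both mutants against control. Newly made tubulin passes through prefoldin and the CCT chaperonin and is then paired into dimers by the cofactors Tbca to Tbce with the small GTPase Arl2. Of 21 such genes, all tested, 3 were called lower and 0 higher in cKO against control, beside 2.96% of all tested genes called lower, 4 lower and 0 higher in dKO against control, beside 4.69%, and 0 in dKO against cKO (3 at an unadjusted p under 0.05). The list's median change was -0.047, 0.057 and 0.028, beside -0.0034, 0.0051 and 0.011 over all tested genes, and 17 of 21 were called in no comparison on this scale. On the deposited scale 4 higher and 3 lower were called in cKO against control, beside 34.3% of all tested genes called higher. In dKO against control 0 higher and 4 lower were called on that scale, beside 5.19% called in either direction. In dKO against cKO these counts were 0 and 8, beside 38.8% of all tested genes called lower.

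Arl2 read 6.30, 5.49, 6.46 and 6.71 TPM in the controls, 4.24, 5.15, 4.28 and 5.77 in the cKO embryos and 2.77, 3.04, 3.65 and 2.97 in the dKO embryos. The dKO embryos lay below all 8 others, and cKO overlapped control as deposited but not relative to the median gene. It fell by 0.56 in cKO against control (adjusted p = 0.000522) and by 0.80 in dKO against control (6.92e-05). The prefoldin subunit gene Vbp1 read 17.5, 19.97, 21.2 and 19.00 TPM in the controls, 12.97, 13.7, 14.98 and 16.2 in the cKO embryos and 13.6, 10.98, 10.7 and 12.1 in the dKO embryos. All 8 mutant embryos lay below all controls, and it fell by 0.65 against control in both mutants (adjusted p = 0.00211 in cKO and 0.00264 in dKO). Another prefoldin subunit gene, Pfdn5, stood at 41.6 ± 2.79 TPM in the controls, 34.7 ± 1.14 in the cKO embryos and 28.6 ± 2.54 in the dKO embryos, also with no overlap with control. Pfdn5 fell by 0.50 in cKO (0.00734) and by 0.51 in dKO (0.00745) against control. All of these calls of Arl2, Vbp1 and Pfdn5 held on all 4 scalings and whichever embryo was left out. The highest limma adjusted p was 0.0349 over the scalings (Pfdn5 in cKO as deposited) and 0.0274 leaving out 1 embryo. The fourth call in dKO, named after its value was seen because it completes the count, was the cofactor gene Tbce (log2 change -0.47, adjusted p = 0.0384), which was lost without any 1 of control embryos 2, 3 and 4 and dKO embryos 2, 3 and 4 (0.0125 to 0.0985).

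Few genes of the other groups around tubulin were called. Of 17 genes of the gamma-tubulin ring complex and the augmin complex that recruits it, 0 were called in cKO against control or in dKO against cKO. At an unadjusted p under 0.05 stood 8 in cKO against control, all lower, and 3 in dKO against cKO (2 higher, 1 lower). The median change of the list was -0.15, -0.10 and 0.0355, beside -0.0034, 0.0051 and 0.011 over all tested genes. In cKO against control quantile normalization called 2 lower, and TPM as deposited called 1 higher, beside 34.3%. In dKO against control 1 was called lower relative to the median gene, beside 4.69% of all tested genes, the augmin subunit gene Haus1. Haus1 read 13.6, 13.2, 14.6 and 14.5 TPM in the controls, 12.3, 14.6, 12.0003 and 17.3 in the cKO embryos and 12.2, 9.75, 9.66 and 10.2 in the dKO embryos, and fell by 0.37 (adjusted p = 0.0267), with all dKO embryos below all controls. That call was lost on the deposited scale (adjusted p = 0.0674) and without any 1 of control embryos 2, 3 and 4 and dKO embryos 2, 3 and 4 (0.00594 to 0.0723). Of the 3 genes that destabilise tubulin mRNA when dimers are in excess (Ttc5, Scaper and Cnot11), 0 were called in any comparison relative to the median gene (0 at an unadjusted p under 0.05), with list medians of -0.028, -0.032 and -0.046, while on the deposited scale 1 was called higher in cKO against control and 2 lower in dKO against cKO, beside 34.3% and 38.8% of all tested genes.

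Of 19 genes for enzymes that modify tubulin, 14 were tested. In cKO against control 1 was called, higher (beside 3.72% of all tested genes): Agtpbp1, which shortens glutamate chains on tubulin tails, at 10.5 ± 0.922 TPM in the controls, 18.1 ± 2.98 in the cKO embryos and 12.2 ± 1.27 in the dKO embryos (log2 change 0.47, adjusted p = 0.0240). All cKO embryos lay above all controls, and the call was lost without control embryo 1, control embryo 2, cKO embryo 1 or cKO embryo 2 (0.00888 to 0.0659 over the 8 fits). In dKO against control 1 was called, lower (beside 4.69% of all tested genes): Vash1, which removes the terminal tyrosine of alpha-tubulin, at 3.00 ± 0.571 TPM in the controls, 3.01 ± 0.532 in the cKO embryos and 1.71 ± 0.271 in the dKO embryos. Vash1 fell by 0.54 (adjusted p = 0.00414), every dKO embryo lay below all 8 others, and the call held whichever embryo was left out (0.00430 to 0.0182). In dKO against cKO 0 of the 14 were called (6 at an unadjusted p under 0.05). On the deposited scale 8 of the 14 were called higher in cKO against control, beside 34.3% of all tested genes, and 11 lower in dKO against cKO, beside 38.8%.

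Stathmins, which bind free dimers, and neuronal microtubule-associated proteins gave no call relative to the median gene. Of 14 listed genes 13 were tested (among them Stmn1 to Stmn4, Dcx, Map1b, Map2 and Mapt), and 0 were called by limma in any comparison on that scale (4, 1 and 4 at an unadjusted p under 0.05 for cKO against control, dKO against control and dKO against cKO). Their median change was 0.27 in cKO against control, 0.047 in dKO against control and -0.25 in dKO against cKO. With TPM as deposited, 9 of the 13 were called higher in cKO against control, beside 34.3% of all tested genes, and 8 lower in dKO against cKO, beside 38.8%. Scaled to an equal protein-coding sum these counts were 2 and 1, and with quantile normalization 0 and 1.

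Markers of neurons and of dividing cells were read in the same libraries. Summed TPM of 13 neuron markers ranged from 190.0 to 222 in control, 242 to 305 in cKO and 137 to 214 in dKO, the same order as for Tubb3. Relative to the median gene, 1 of 13 was called higher in cKO against control, beside 3.72% of all tested genes. This was Gap43, a growth cone protein gene (0.76, limma adjusted p = 0.00378). In dKO against control 2 were called lower (Neurod6 and Neurod2), beside 4.69%. In dKO against cKO 3 were called lower (Neurod2, Snap25 and Gap43), beside 3.83%. The median change of the list was 0.13, -0.16 and -0.32, beside -0.0034, 0.0051 and 0.011 over all tested genes. As deposited, 5 were called higher in cKO against control, beside 34.3%, and 8 lower in dKO against cKO, beside 38.8%. In dKO against control 1 was called lower as deposited, beside 5.19% called in either direction. Of 12 proliferation markers, 3 were called lower in cKO against control (Pcna, Ccna2 and Kif11), beside 2.96% of all tested genes. In dKO against control 3 were called lower (Ccna2, Aurkb and Kif11), beside 4.69%. In dKO against cKO 0 were called (2 at an unadjusted p under 0.05). As deposited, 1, 1 and 2 were called lower in these comparisons, the last beside 38.8%. On that scale, 4035 of the 4163 calls over all 11764 tested genes were higher in cKO against control, and 210 of 610 in dKO against control. The sums were 633 to 737, 537 to 759.9 and 475 to 585 TPM in the 3 groups. The median change of the proliferation markers was -0.29, -0.28 and 0.050 relative to the median gene. The part of the neuron and proliferation markers in the tubulin values was not tested.

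Cells outside the Emx1 lineage also make tubulin. Counts of calls here are relative to the median gene, unless another scale is named. The background shares over the 11764 tested genes were 3.72% (higher) and 2.96% (lower) for cKO against control. They were 3.74% (higher) and 4.69% (lower) for dKO against control, and 3.83% (lower) for dKO against cKO. Microglia markers (8 genes) summed to 11.2 to 13.7 TPM in control, 45.6 to 65.02 in cKO and 13.4 to 18.1 in dKO, with 7 of 8 called higher in cKO against control and 6 of 8 lower in dKO against cKO. Vessel markers (5 of 7 tested) summed to 9.69 to 12.8, 19.5 to 25.4 and 12.3 to 19.4, with 3 higher in cKO against control and 1 in dKO against control. Meninges and fibroblast markers (4 of 6 tested) summed to 23.03 to 39.9, 41.6 to 49.9 and 36.3 to 53.05, with 1 and 2 higher. Of the neural lists, 2 of 10 radial glia markers and 3 of 7 intermediate progenitor markers were called lower in cKO against control, and 0 and 1 in dKO against control. The radial glia sums were nonetheless highest in cKO: 278 to 309 in control, 324 to 386 in cKO and 298 to 306 in dKO. As deposited, 2 radial glia markers were called higher and 1 lower in cKO against control, and 1 intermediate progenitor marker each way, beside 34.3% of all tested genes called higher. With an equal protein-coding sum or quantile normalization, 1 radial glia marker was called higher and 2 lower. The pallium marker Emx1 was called lower in each mutant, though not as deposited, 0 of 7 erythroid markers were called (0, 1 and 1 at an unadjusted p under 0.05 in the 3 comparisons), and 1 of 7 interneuron markers was tested and not called. Summed TPM of these 7 interneuron markers ranged from 1.73 to 2.43 in control, 3.43 to 5.29 in cKO and 1.68 to 3.65 in dKO, so every cKO embryo lay above every control as deposited. On that scale 32.7% of all tested genes lay higher in cKO without overlap. Only 1 of the 7 interneuron markers reached a mean of 1 TPM in each group, so the sum rests on values near the floor. No marker of these lists was at 0 in all embryos of a group. What these cells contribute to Tubb6, Tubb2a or any other isotype was not tested.

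Genes whose profile over the 12 embryos was close to that of Tubb3 were ranked by the smallest root mean square difference of their log2(TPM + 1) profiles relative to the median gene, each gene set to its own mean, among the 2776 protein-coding genes that averaged 10 TPM or more. Among the 5 nearest were Rasgef1b (0.114), Dctn2 (0.118), Kif5c (0.122) and Arl3 (0.130), where the median gene was at 0.281. The other neuronal isotypes ranked 60 (Tuba1a, 0.165) and 89 (Tubb2b, 0.175), ahead of Tubb2a at 114, Tubb5 at 273, Tuba1c at 396, Tubb4b at 577 and Tuba1b at 2078. Most like Tubb5 were H2afy2 (0.0517), Dpp3 (0.0621), Ubtf (0.0659), Dnpep (0.0680) and Aarsd1 (0.0704), with the median gene at 0.190. There the nearest tubulin was Tubb2b, at rank 155, while the proliferative isotypes Tubb4b, Tuba1b and Tuba1c ranked 585, 692 and 751. These distances are descriptions over the same 12 libraries.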

How the data were processed

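Total RNA libraries (stranded, rRNA-depleting kit per the labels' protocols) of 12 embryos, 4 per genotype, were deposited as tables of TPM, 1 per embryo, over 54735 gene symbols. Reads were aligned with HISAT2 to mm10, per the submitters' processing notes, while the quantification tool, annotation and treatment of reads matching several genes are not given in the sources used here. The deposited values were taken as TPM because each table sums to 1000000. TPM keeps no depth, so the reads behind each value are unknown.

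Here, log2(TPM + 1) of the 11764 genes that averaged 1 TPM or more was shifted per library by its median difference from the mean library and fitted with limma 3.58.1 (R 4.3.3; intensity trend), all 12 libraries in 1 fit without covariates, with Benjamini-Hochberg adjustment over all tested genes. The procedure was tested on simulated data. Ratios and shares were computed per embryo with Python 3.11.15. Coding sequences and 50-base stretches came from GENCODE M21 (54106 symbols matched) and were compared with Biopython 1.88. RefSeq protein-coding symbols (21373) served for 1 rescaling, in which they held 14.2% to 19.5% of TPM.

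The members and lists were chosen with earlier results of these data known. Named are all 10 tubulin genes, Rnu11 and Trp53, up to 3 called genes per list, direction and comparison with the largest change, and the 5 genes most like Tubb3 and Tubb5; some of these, and 2 of the coding ends examined, are not reported here. Alternatives were 3 other scalings, another pseudocount, 2 other filters, only the groups compared, the replicate number as a block, and leaving out each embryo. Leave-one-out shares were added after seeing the data.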

Additional observations from a re-analysis of the deposited data

Results flagged for a closer look

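In 45 sets of 4 embryos (the 10 genes, 3 isotype ratios and 2 isotype shares in each group), the gap between an extreme embryo and its neighbour was set against the range of the set. In 3 sets the gap was a larger part of the range than the 95% critical value of Dixon, where chance gives about 1 in 20, or 2.25 sets. Tuba1a in cKO was low in embryo 3, at 1005 TPM against 1314 to 1349 in the others. Tubb2a in control was low in embryo 1, at 37.6 TPM against 41.4 to 42.1, and Tubb5 in control was low in embryo 2, at 375 TPM against 487 to 503. Without cKO embryo 3, Tuba1a in cKO against control had a log2 change of 0.26 (limma adjusted p = 0.219) against 0.18 with it. Without control embryo 1, the call of Tubb2a was lost (0.37, adjusted p = 0.114). Without control embryo 2, the change of Tubb5 in cKO against control was -0.080 against -0.0060 with it, and it was not called with or without that embryo.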

How the results depend on the processing

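The count of the 10 tubulin genes called depended on the scaling and on single embryos. In cKO against control (1 gene called) it was 4 with TPM as deposited, 2 with quantile normalization, 3 with no filter on low values, and 0 with a pseudocount of 0.1, with only the 2 groups compared and with the replicate number as a block. Leaving out 1 embryo gave 0 to 1. In dKO against cKO (1 gene called) it was 8 with TPM as deposited, 2 with quantile normalization, 5 with no filter, 0 with only the 2 groups and 0 with the replicate number as a block, and leaving out 1 embryo gave 0 to 1. In dKO against control it was 0 under all of these settings. An equal protein-coding sum and a filter at a mean of 5 TPM (8 of the 10 genes tested) gave the reported counts. With an equal protein-coding sum, 1366 of 1568 calls over all genes were higher in cKO against control, 638 of 1086 in dKO against control and 166 of 1176 in dKO against cKO, beside 438 of 786, 440 of 992 and 247 of 698 relative to the median gene.

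The replicate numbers showed no pairing of the embryos: deviations of same-numbered embryos correlated between -0.0954 and 0.0745, and in 2 of 12 cases an embryo's best partner had its own number. Litters are not labelled, so this check neither shows nor excludes shared litters. With the replicate block the limma adjusted p of Tubb2a in cKO against control was 0.0964 and that of Tubb3 in dKO against cKO 0.0764.

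Directions of uncalled changes turned as follows. In cKO against control, TPM as deposited gave 0.029 for Tuba1b, 0.13 for Tuba1c, 0.24 for Tubb5, 0.15 for Tubg1 and 0.18 for Trp53. Quantile normalization gave 0.072 for Tuba1b and 0.24 for Tubb5. No filter gave 0.10 for Tuba1c, 0.21 for Tubb5, 0.12 for Tubg1 and 0.15 for Trp53. An equal protein-coding sum gave 0.088 for Tubb5, 0.028 for Tubg1 and 0.057 for Trp53, and a filter at 5 TPM 0.0099 for Tubb5. Leaving out 1 embryo gave -0.017 to 0.089 for Tubb4b, -0.080 to 0.067 for Tubb5 and -0.19 to 0.13 for Trp53. In dKO against control, Tuba1b was 0.031 with an equal protein-coding sum, 0.042 with quantile normalization and -0.080 to 0.031 leaving out 1 embryo, and Tubb6 was -0.0018 to 0.20 leaving out 1 embryo. In dKO against cKO, Tuba1b was -0.064 as deposited, -0.031 with quantile normalization and -0.030 with no filter, and Tuba1c was 0.019 with a pseudocount of 0.1 and -0.078 to 0.069 leaving out 1 embryo. Scalings differ by construction in the shift they give all genes, and the other causes were not tested. The ratio of neuronal to proliferative isotypes and the shares of Tubb3 and Tuba1a moved by less than 1 SD under each of their alternatives. Genes near 1 TPM, such as Tubb6, are limited by the added 1 TPM and by unknown depth.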
